A study of Mus musculus with 16 samples.

Results

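Accessible chromatin was described at 6 mouse genes of the glucocorticoid response: Nr3c1, which encodes the glucocorticoid receptor, Fkbp5, and the hormone-induced targets Tsc22d3, Per1, Sgk1 and Klf9. Peaks of 16 libraries were merged, those called in 2 or more libraries were retained, and a region was counted for a gene when it overlapped the RefSeq gene body or the 10 kb on either side. This gave 57 regions of 83972, of which 23 were among the 24955 called in all 16 libraries. The genes were chosen by measured values of these data, because regions at Sgk1 and Klf9 were higher, and regions at Tsc22d3 and Per1 lower, after interleukin-1β (IL-1β) with culture. The size of that change at the 6 genes is therefore a description with no test, and only the comparison of diabetic with control mice was tested.

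The libraries were made by ATAC-seq, a method that tags open chromatin with the transposase Tn5 and sequences the tagged fragments. Nuclei of 50000 bone marrow cells per replicate were used, after cells with CD3, CD4, B220, Ter119 or Gr1 had been removed; the labels call the cells haematopoietic stem cells. All mice were male C57Bl/6. The study had 4 control mice and 4 mice made diabetic with streptozotocin, a chemical toxic to the insulin-producing cells of the pancreas; the controls had no treatment. The marrow sample of each mouse was divided into a baseline portion, lysed at once, and a portion cultured for 6 h with IL-1β at 10 ng/mL. No cultured portion without IL-1β was part of the design, so the cytokine and the culture cannot be told apart. In bulk marrow, fewer cells of a type and less open chromatin per cell cannot be told apart either.

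Glucocorticoids enter the cell and bind the receptor, which leaves a chaperone complex, moves to the nucleus and binds DNA as a dimer at palindromic elements. It raises transcription of feedback regulators and of genes that restrain inflammation, and it also represses genes driven by NF-κB and AP-1. In bone marrow, glucocorticoids shape the egress, survival and differentiation of blood cells, and IL-1 is a cytokine that drives myeloid output from progenitors.

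The value of a region is its summit reads, the number of reads piled up at its highest summit, recovered from the deposited fold and p of each peak and scaled to equal medians across libraries. The lists held 37543 to 72525 peaks per library, and the median summit of the regions called in every library held 27 to 58 reads before scaling. IL-1β portions had 37543 to 67779 peaks and baseline portions 49282 to 72525. Reads at the median summit, divided by the lowest background solved at any summit of the library, were 28.3 to 44.1 in baseline libraries. In IL-1β libraries the same ratio was 22.4 to 39.7, and the part of this difference in the results below was not tested. That lowest background, and not the local one of each region, is also what background scaling uses below. Across all 24955 regions in limma's fit, with Benjamini-Hochberg adjustment at 0.05, 6.42% were higher and 3.40% lower after IL-1β. Of the 23 member regions 3 were past that threshold in each direction, a count that the choice of genes fixes. The members nearest to the threshold were a region of Sgk1 at a log2 difference of 0.39, just inside it, and a region of Per1 at -0.22, just outside. By position, the farthest region counted lay 9971 bp from the body of Tsc22d3, and the nearest region left out lay 10233 bp from Sgk1. Of the 57 regions 5 were called in exactly 2 libraries, and 11 further regions in the same windows were called in 1 library and left out. Below, the regions of a gene are numbered by ascending coordinate, on mm10.

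Nr3c1 (chr18:39410545-39519421), the receptor gene itself, had 12 regions, of which 4 were called in every library. After IL-1β these 4 were higher by log2 differences of 0.09 to 0.33, and baseline and IL-1β libraries overlapped at each of them. Region 7 (chr18:39489105-39491866), the widest, held 102 ± 14.98 scaled summit reads in the 8 baseline libraries and 116 ± 9.20 in the 8 IL-1β libraries (mean ± SD), a log2 difference of 0.19 (SE 0.08). Region 4 (chr18:39446637-39447020) had the largest difference of these 4, 0.33 (SE 0.16). With libraries scaled to their background instead of their medians, regions 3, 7 and 9 turned lower by -0.17, -0.08 and -0.18, and region 4 was at 0.06.

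Fkbp5 (chr17:28398753-28486149) encodes a co-chaperone that lowers the receptor's affinity for hormone and is itself induced by the hormone, closing a short feedback loop. It had 9 regions, 2 of them called in every library. Region 8 (chr17:28485410-28486535) covered the transcription start and held 108 ± 7.87 scaled reads in the 8 baseline libraries and 118 ± 9.07 in the 8 IL-1β libraries (mean ± SD), a log2 difference of 0.13 (SE 0.07). Region 1 (chr17:28407438-28408218), inside the body 78491 bp past the start, had 57.4 ± 13.0 and 62.6 ± 11.5, a difference of 0.15 (SE 0.14). Both sets of 8 libraries overlapped, and with background scaling both differences turned negative, to -0.12 at region 1 and -0.14 at region 8. Regions 3, 5 and 9 were each called in 15 libraries. In a fit of regions called in at least 12 libraries they were at -0.08 (SE 0.19), -0.36 (SE 0.15) and -0.33 (SE 0.16).

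Tsc22d3 (chrX:140539528-140600522, minus strand) encodes GILZ, a leucine zipper protein that binds NF-κB and AP-1 and carries part of the anti-inflammatory action of the hormone. It had 7 regions, 3 of them called in every library, and of these regions 2 and 3, toward its downstream end, were lower after IL-1β. The clearest was region 2 (chrX:140537704-140538022), 319 bp wide and 1506 bp past the 3′ end of the body. Control mice had 47.9, 50.1, 46.0 and 54.0 scaled summit reads at baseline and 22.9, 20.3, 17.8 and 22.7 after IL-1β. Diabetic mice had 48.3, 52.3, 49.7 and 45.1 at baseline and 30.8, 25.2, 28.2 and 21.5 after IL-1β. Every IL-1β library was below every baseline library, and all 8 mice were lower. The log2 difference was -1.07 (SE 0.11), -1.25 (SE 0.15) in control and -0.90 (SE 0.15) in diabetic mice, and it stood at rank 13 among falls over all 24955 regions. It ranged from -1.11 to -1.02 when any library, control mouse 2 or diabetic mouse 4 was left out, and was -1.34 with background scaling. Region 1, farther past the 3′ end and called in 15 libraries, was at -0.03 (SE 0.18) in a fit of regions called in at least 12 libraries. Its values were 0.22 (SE 0.27) in control and -0.27 (SE 0.25) in diabetic mice.

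Region 3 (chrX:140542306-140543525) covers the most downstream start of Tsc22d3 in RefSeq's promoter table, at 140542668. In control mice it held 76.9, 76.8, 82.6 and 87.3 scaled reads at baseline and 60.5, 69.0, 69.0 and 59.9 after IL-1β. In diabetic mice it held 86.6, 78.5, 75.3 and 102 at baseline and 66.8, 63.6, 69.9 and 68.4 after IL-1β. Again no IL-1β library reached a baseline library. The log2 difference was -0.33 (SE 0.07), nearly equal in control (-0.33) and diabetic mice (-0.34). Summing all summits of the region in place of the highest gave -0.55, and background scaling -0.60. Region 6 (chrX:140598686-140599730), 1311 bp inside the most upstream start, held 38.8 ± 3.56 reads in the 8 baseline libraries and 42.0 ± 5.44 in the 8 IL-1β libraries (mean ± SD), a difference of 0.11 (SE 0.10) that became -0.16 with background scaling. With summed summits, of which the lists gave 1 to 3 per library here, region 6 was at -0.50 (SE 0.22) in control and 0.46 (SE 0.22) in diabetic mice. The upstream start itself lies in region 7 (chrX:140600516-140601086), called in 14 libraries, which differed by -0.14 (SE 0.16) in a fit of regions called in at least 12 libraries. The bases before the downstream and the upstream start are shown because they lie in regions 3 and 7. They come from RefSeq's promoter table (GRCm38.p6), run 5′ to 3′ on the gene's strand, and end at the base before the start. Capitals in these and the following promoters mark matches to the motifs searched, which were the glucocorticoid response element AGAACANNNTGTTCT, its half-site AGAACA, the κB motif GGGNNTTTCC, the AP-1 motif TGANTCA, the E-box CACGTG, the cAMP response element TGACGTCA and the TATA box TATAAA, each on both strands.
Tsc22d3 downstream start, chrX:140542669-140542918, minus strand: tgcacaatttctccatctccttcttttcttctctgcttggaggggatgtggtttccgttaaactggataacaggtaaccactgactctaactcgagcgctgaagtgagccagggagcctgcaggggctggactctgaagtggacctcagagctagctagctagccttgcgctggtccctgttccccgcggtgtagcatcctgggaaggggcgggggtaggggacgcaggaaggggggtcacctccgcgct
Tsc22d3 upstream start, chrX:140600523-140600772, minus strand: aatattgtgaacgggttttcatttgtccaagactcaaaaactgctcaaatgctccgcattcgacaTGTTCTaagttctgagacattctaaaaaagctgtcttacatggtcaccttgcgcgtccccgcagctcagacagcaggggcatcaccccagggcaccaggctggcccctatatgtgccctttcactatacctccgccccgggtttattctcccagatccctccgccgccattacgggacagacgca
The first held no match and the second held 1 half-site, read on the opposite strand, at position -185 from the start. The half-site, which lies inside every full element, occurred in 19.0% of the 32817 promoters of 300 bases in that table. A match is a description of letters and not a site.

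Per1 (chr11:69095108-69109965, plus strand) encodes a repressor of the circadian clock whose transcription the hormone induces within minutes to hours. It had 9 regions, 6 of them called in every library, and the largest difference at its highest summits was at its downstream start. Region 6 (chr11:69099781-69100230) covers the start at 69100152. Control mice had 76.2, 81.0, 69.7 and 93.2 scaled reads at baseline and 58.9, 54.1, 63.0 and 58.9 after IL-1β. Diabetic mice had 96.6, 82.2, 74.5 and 59.6 at baseline and 62.6, 56.1, 56.4 and 62.0 after IL-1β. The groups did not overlap in control mice, and in diabetic mice the baseline library of mouse 4 fell among the IL-1β values, so 7 of 8 mice were lower. The log2 difference was -0.41 (SE 0.09), -0.44 in control and -0.38 in diabetic mice. Without diabetic mouse 4 it was -0.48, and with background scaling -0.68.

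The start 1203 bp upstream differed less. Region 5 (chr11:69098548-69099143), over the start at 69098949, held 110 ± 8.79 scaled reads in the 8 baseline libraries and 111 ± 11.7 in the 8 IL-1β libraries (mean ± SD), a log2 difference of 0.01 (SE 0.07), or -0.26 with background scaling. Between region 5 and the 5′ end of the body, region 4 (chr11:69097007-69097343) had 81.3 ± 6.34 and 69.9 ± 5.53 reads, a difference of -0.22 (SE 0.07), with all 8 mice lower but the portions overlapping. Region 3, which spans the 5′ end of the annotated body, was at 0.14 (SE 0.08), -0.13 with background scaling and 0.27 with summed summits. Regions 1 and 7 were at -0.15 (SE 0.08) and -0.12 (SE 0.13), and region 1 lies in the body of the neighbouring gene Vamp2. With summed summits region 1 was at -0.48 (SE 0.13) and region 6 at -0.40. Both starts are shown because only 1203 bp separate a region that was lower from one that was not.
Per1 upstream start, chr11:69098699-69098948, plus strand: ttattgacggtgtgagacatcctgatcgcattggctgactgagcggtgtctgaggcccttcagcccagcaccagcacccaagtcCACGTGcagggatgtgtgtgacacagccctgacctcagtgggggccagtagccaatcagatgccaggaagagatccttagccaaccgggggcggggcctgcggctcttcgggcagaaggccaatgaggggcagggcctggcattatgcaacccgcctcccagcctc
Per1 downstream start, chr11:69099902-69100151, plus strand: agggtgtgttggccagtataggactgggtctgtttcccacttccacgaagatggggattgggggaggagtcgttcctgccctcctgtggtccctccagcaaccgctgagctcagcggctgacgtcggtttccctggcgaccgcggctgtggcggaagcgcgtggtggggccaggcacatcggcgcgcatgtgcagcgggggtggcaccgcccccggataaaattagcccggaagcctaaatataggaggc
The upstream start held an E-box, the element bound by the clock activators CLOCK and BMAL1, at position -166 from the start. E-boxes of this form occurred in 7.15% of all promoters. The downstream start held no match to the motifs searched.

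Sgk1 (chr10:21882184-21999903, plus strand) encodes a serum- and glucocorticoid-regulated kinase that acts on ion transport and cell survival. It had 14 regions, 5 of them called in every library, and the 2 largest differences among these 5 were inside the long body. Region 6 (chr10:21907784-21908464) had its summit 25789 bp past the most upstream start. Control mice had 18.8, 20.05, 20.3 and 11.8 scaled reads at baseline and 27.8, 54.1, 40.4 and 27.9 after IL-1β. Diabetic mice had 18.1, 14.0, 15.2 and 17.4 at baseline and 39.3, 29.9, 30.7 and 31.7 after IL-1β. Every IL-1β library was above every baseline library. The log2 difference was 1.04 (SE 0.16), 1.06 (SE 0.22) in control and 1.02 (SE 0.22) in diabetic mice, and it stood at rank 69 among rises over all 24955 regions. It ranged from 0.94 to 1.10 when any library or either of these 2 mice was left out, and was 0.77 with background scaling.

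Region 4 (chr10:21905615-21906028), which precedes region 6 in the body, was also higher, by less. Control mice had 30.6, 35.1, 28.4 and 32.4 scaled reads at baseline and 38.4, 51.4, 42.8 and 46.5 after IL-1β. Diabetic mice had 39.3, 25.2, 28.8 and 27.6 at baseline and 41.4, 39.3, 31.9 and 32.9 after IL-1β. All 8 mice were higher; the portions did not overlap in control mice and overlapped in diabetic mice through mouse 1. The log2 difference was 0.39 (SE 0.11), 0.50 in control and 0.28 in diabetic mice, and it was 0.12 with background scaling. Region 5, between regions 4 and 6, was called in 12 libraries, and region 7 next to region 6 in 0 of 4 control and 1 of 4 diabetic baseline libraries and in 3 of 4 IL-1β libraries of each phenotype.

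Region 13 (chr10:21993991-21994918), over the start at 21994666, held 92.0 ± 6.51 scaled reads in the 8 baseline libraries and 98.6 ± 9.07 in the 8 IL-1β libraries (mean ± SD), a difference of 0.10 (SE 0.07), or -0.17 with background scaling. With summed summits it was 0.27 (SE 0.11), 0.40 in control and 0.14 in diabetic mice. Region 11, at position -2146 from the start at 21978672, was at 0.19 (SE 0.10), or -0.08 with background scaling and 0.29 with summed summits, and region 2 at -0.19 (SE 0.15). The start at 21993890, 776 bp upstream of the one in region 13, is shown beside it because it carries the full glucocorticoid response element.
Sgk1 start at 21993890, chr10:21993640-21993889, plus strand: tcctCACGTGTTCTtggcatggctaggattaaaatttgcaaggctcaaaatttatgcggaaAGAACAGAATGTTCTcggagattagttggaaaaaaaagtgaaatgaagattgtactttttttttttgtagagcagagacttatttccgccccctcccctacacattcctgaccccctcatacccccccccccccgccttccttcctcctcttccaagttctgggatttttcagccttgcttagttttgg
Sgk1 start at 21994666, chr10:21994416-21994665, plus strand: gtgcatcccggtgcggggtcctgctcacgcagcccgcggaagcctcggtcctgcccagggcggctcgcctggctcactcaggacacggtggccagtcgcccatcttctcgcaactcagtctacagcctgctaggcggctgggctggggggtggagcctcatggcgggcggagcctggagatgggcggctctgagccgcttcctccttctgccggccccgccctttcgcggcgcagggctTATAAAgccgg
The element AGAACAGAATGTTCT at chr10:21993701-21993715, 189 bp before the start, is 1 of only 3 full matches among the 32817 promoters (0.00914%), the others being at Acnat2 and Gm35041. It lies 324 bp past the end of region 12 and 276 bp before region 13, and none of the 16 lists had a peak over it. The capitals at the beginning of that promoter are an E-box that overlaps a further half-site. The start in region 13 held a TATA box, as did 13.6% of all promoters, and no glucocorticoid half-site.

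Klf9 (chr19:23141226-23168129, plus strand) encodes a zinc-finger transcription factor that the receptor induces in many tissues. It had 6 regions, 3 of them called in every library. Region 2 (chr19:23134601-23136250) spans 1650 bp and ends 4976 bp upstream of the start. Control mice had 44.0, 38.4, 39.9 and 40.2 scaled reads at baseline and 72.0, 60.9, 76.1 and 56.8 after IL-1β. Diabetic mice had 39.3, 43.0, 44.1 and 52.3 at baseline and 55.2, 75.7, 71.1 and 69.6 after IL-1β. All IL-1β libraries were above all baseline libraries. The log2 difference was 0.65 (SE 0.09), 0.70 (SE 0.13) in control and 0.60 (SE 0.13) in diabetic mice, with 0.62 to 0.70 when any library or either mouse was left out and 0.38 with background scaling. Region 3 (chr19:23140561-23141791), over the start, had 67.7 ± 12.2 and 75.4 ± 3.91 reads (SD, n = 8), a difference of 0.17 (SE 0.08), and region 5 in the body was at 0.19 (SE 0.16). Both of these turned lower with background scaling, to -0.10 and -0.08, region 3 was at -0.01 with summed summits, and the portions overlapped.

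**Figure D1:**
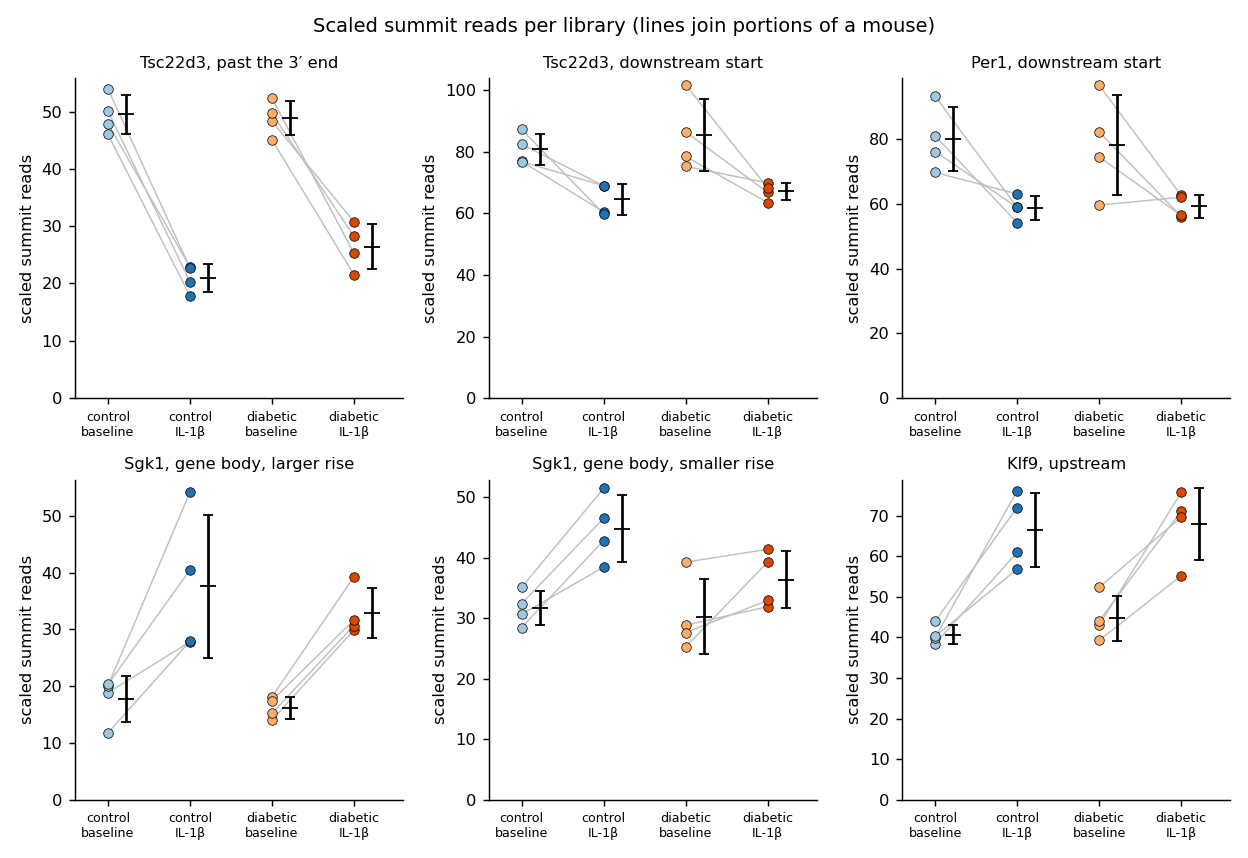
Scaled summit reads (vertical axis, reads at the highest summit after scaling to equal medians) in each of the 16 libraries at 6 regions: Tsc22d3 regions 2 and 3, Per1 region 6, Sgk1 regions 6 and 4, and Klf9 region 2. Points are libraries, grey lines join the 2 portions of a mouse, and bars give the mean and SD of 4 libraries; the lines run down at the Tsc22d3 and Per1 regions, except for 1 diabetic mouse at Per1, and up at the Sgk1 and Klf9 regions.

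**Figure D2:**
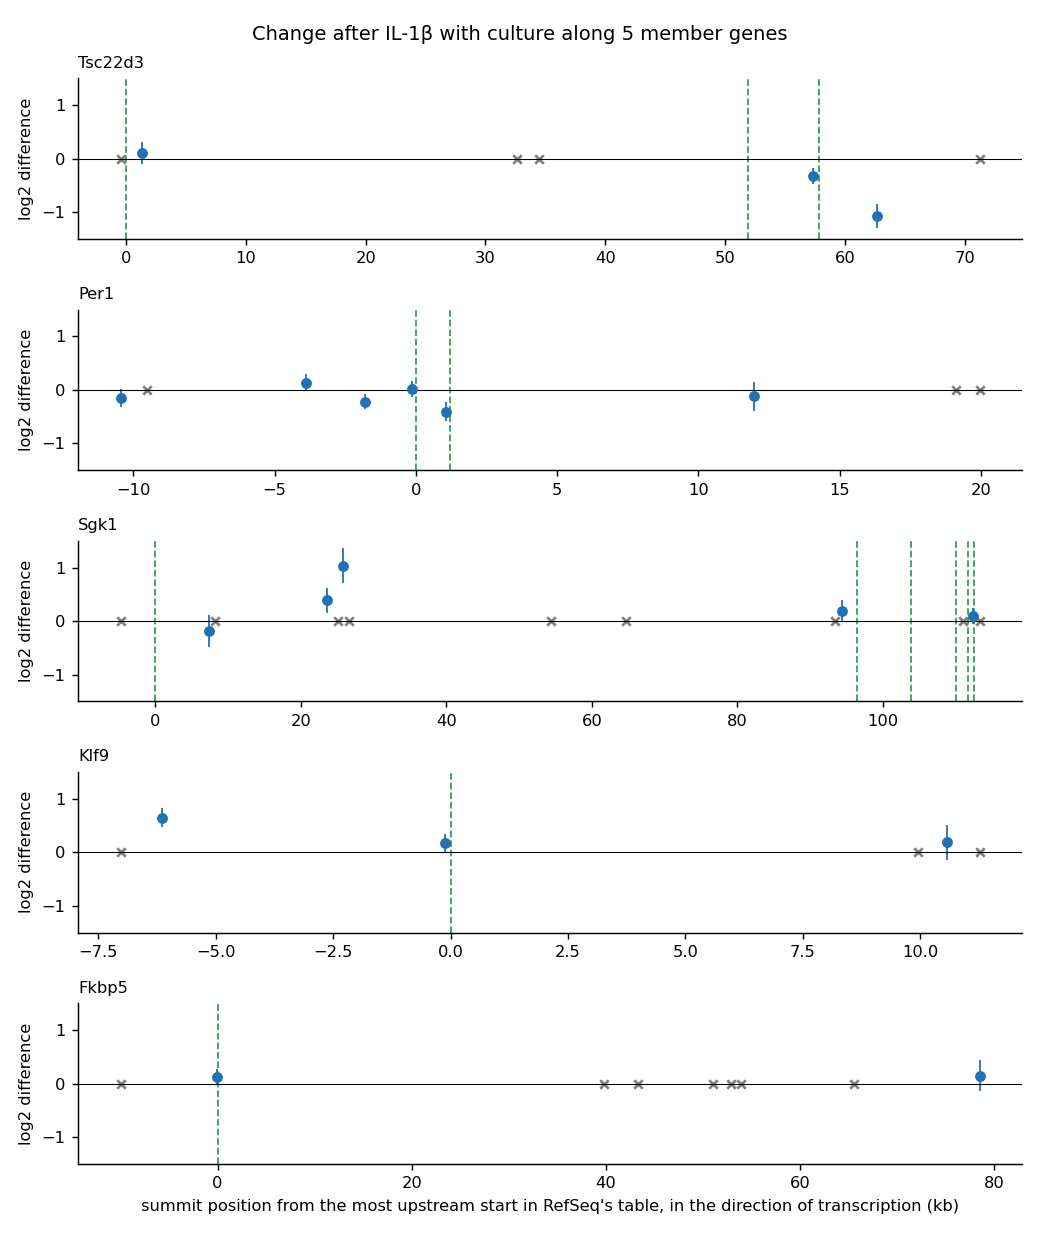
Log2 difference after IL-1β with culture (vertical axis, both phenotypes, bars 95% interval) by summit position in kb from the most upstream start in RefSeq's promoter table (horizontal axis, direction of transcription to the right) at 5 genes. Circles are regions called in all 16 libraries, dashed lines are transcription starts, and crosses on the zero line mark the positions of regions called in fewer libraries, which have no value here; the circles farthest from 0 are at the end of Tsc22d3, inside Sgk1 and upstream of Klf9.

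Of the 23 regions 2 had all 8 IL-1β libraries above all 8 baseline libraries, against 1.58% of all 24955, and 2 had them below, against 0.645%. The median of the 23 was 0.11 and that of all regions 0.03. Because the genes were chosen by this change, these counts and the member median are a description, and no enrichment can be read from them. The directions of the 6 regions plotted by library held under every scaling tried for both phenotypes combined. Background scaling moved the median of all regions from 0.03 to -0.24, so each value with that scaling is to be read against it.

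**Figure D3:**
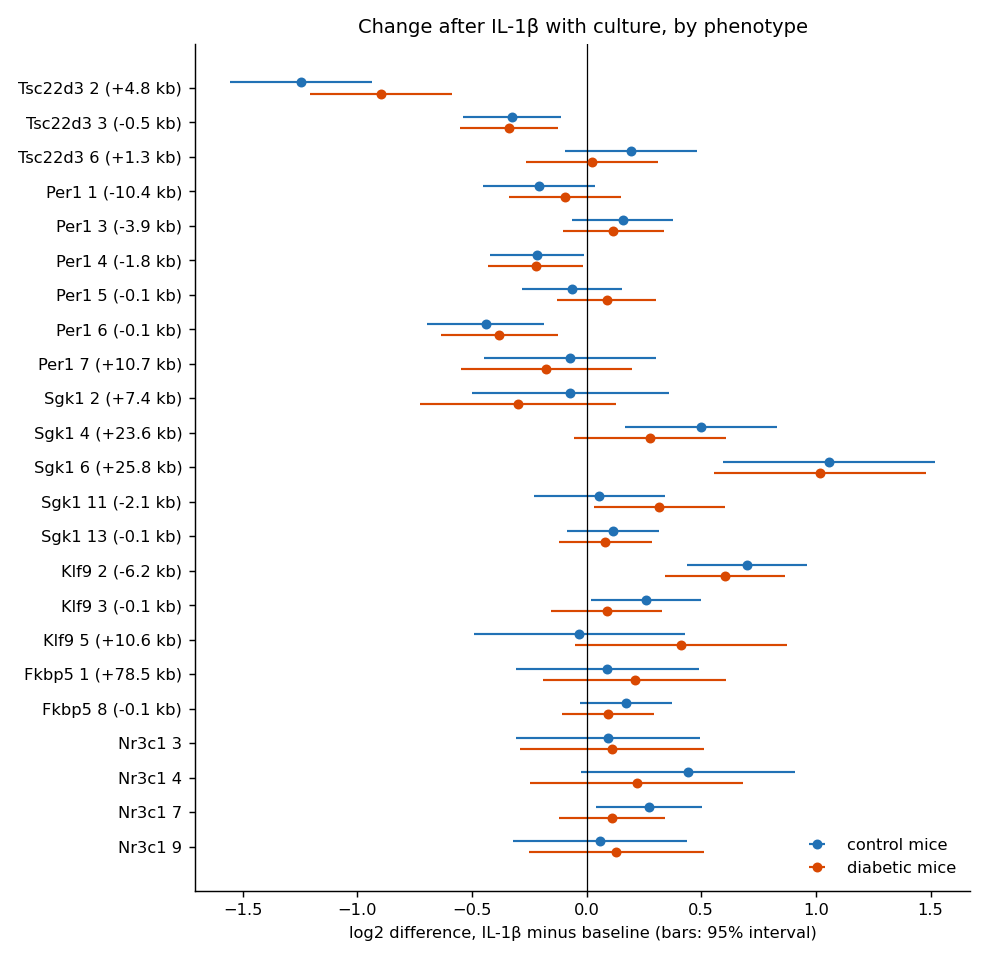
Log2 difference of IL-1β minus baseline (horizontal axis) at the 23 member regions called in every library, numbered as in the text with the distance of the summit to the nearest start in kb where a start is known. Blue points are control mice and orange points diabetic mice, with 95% intervals; the 2 intervals overlap at all 23 regions.

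The question the design asks of phenotype is whether diabetes altered these regions before or after IL-1β. Over all 24955 regions limma called 0 regions (0%) between diabetic and control mice at baseline, 0 (0%) after IL-1β, and 0 (0%) for the difference of the IL-1β change. Unadjusted p below 0.05 was reached by 2943, 1086 and 416 regions in these 3 comparisons, and by 3, 3 and 0 of the 23 member regions. The smallest adjusted p of a member was 0.423 at baseline, 0.970 after IL-1β and 0.9998 for the difference. These p-values rest on the spread between 4 mice per group. No member region had all 8 diabetic libraries above or below all 8 control libraries, against 0.0481% and 0.0281% of all regions. The member median was -0.02 at baseline and 0.01 after IL-1β, and that of all regions 0.07 and 0.04.

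At the 6 regions plotted by library, no difference between the phenotypes in the IL-1β change passed the test, and the intervals were wide. The diabetic change minus the control change was 0.35 at Tsc22d3 region 2, with a 95% interval from -0.09 to 0.79, the decrease being smaller in diabetic mice. It was -0.01 (-0.32 to 0.29) at Tsc22d3 region 3 and 0.06 (-0.30 to 0.42) at Per1 region 6. It was -0.04 (-0.69 to 0.62) at Sgk1 region 6, -0.22 (-0.69 to 0.25) at Sgk1 region 4 and -0.10 (-0.47 to 0.27) at Klf9 region 2.

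The largest phenotype differences at the highest summits were at the receptor gene, and none passed adjustment. Nr3c1 region 9 (chr18:39519211-39520138) spans the upper end of the annotated body. At baseline it held 11.8, 12.5, 12.2 and 13.7 scaled reads in control mice and 16.1, 18.7, 18.4 and 14.5 in diabetic mice. After IL-1β it held 13.1, 14.9, 13.1 and 11.4 in control and 15.9, 22.4, 19.6 and 16.5 in diabetic mice. After scaling the phenotypes did not overlap within either portion, and over both portions the lowest diabetic library, at 14.5, lay below the highest control library, at 14.9. Before scaling they overlapped in both portions. Control mice had 14 to 18 reads at baseline and 11 to 16 after IL-1β, and diabetic mice 10 to 23 and 13 to 24. The share of all regions separated within a portion was not counted, and this region was picked for its large difference. In limma the difference was 0.43 (95% interval 0.05 to 0.81, adjusted p 0.423) at baseline and 0.50 (0.12 to 0.88, adjusted p 0.970) after IL-1β. With background scaling these were 0.21 (SE 0.30) and 0.25 (SE 0.30), and with all summits of the region summed -0.16 and 0.54 (SE 0.32 each).

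Nr3c1 region 3 (chr18:39445944-39446407), inside the body, went the other way. Control mice had 29.8, 22.6, 23.0 and 25.5 scaled reads at baseline and diabetic mice 23.2, 16.8, 15.2 and 17.4. After IL-1β control mice had 30.3, 31.1, 25.0 and 21.7 and diabetic mice 23.3, 18.7, 19.6 and 16.5. Diabetic mouse 1 overlapped the controls in both portions. The difference was -0.48 (-0.89 to -0.08, adjusted p 0.423) at baseline and -0.46 (-0.87 to -0.06, adjusted p 0.970) after IL-1β, and -0.70 and -0.71 with background scaling.

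At Fkbp5 region 1 the baseline difference of -0.40 (-0.80 to -0.00, adjusted p 0.423) rested on 1 library. Diabetic mice had 62.4, 56.1, 59.3 and 26.2 scaled reads at baseline against 62.0, 63.5, 64.3 and 65.8 in control mice, and without the lowest library the difference was -0.11. With background scaling it was -0.62 (SE 0.22). At Tsc22d3 region 2 diabetic mice were higher after IL-1β by 0.33 (0.02 to 0.64, adjusted p 0.970), and at baseline the difference was -0.02 (-0.33 to 0.29). With background scaling these were 0.08 and -0.24 (SE 0.28 each). The other 19 regions had differences of -0.24 to 0.21 at baseline and -0.43 to 0.33 after IL-1β. With summed summits, Tsc22d3 region 6 had a baseline difference of -0.87 (SE 0.22, adjusted p 0.546) and a difference of the IL-1β change of 0.96 (SE 0.31, adjusted p 0.9999), larger in size than any phenotype difference at the highest summits.

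**Figure D4:**
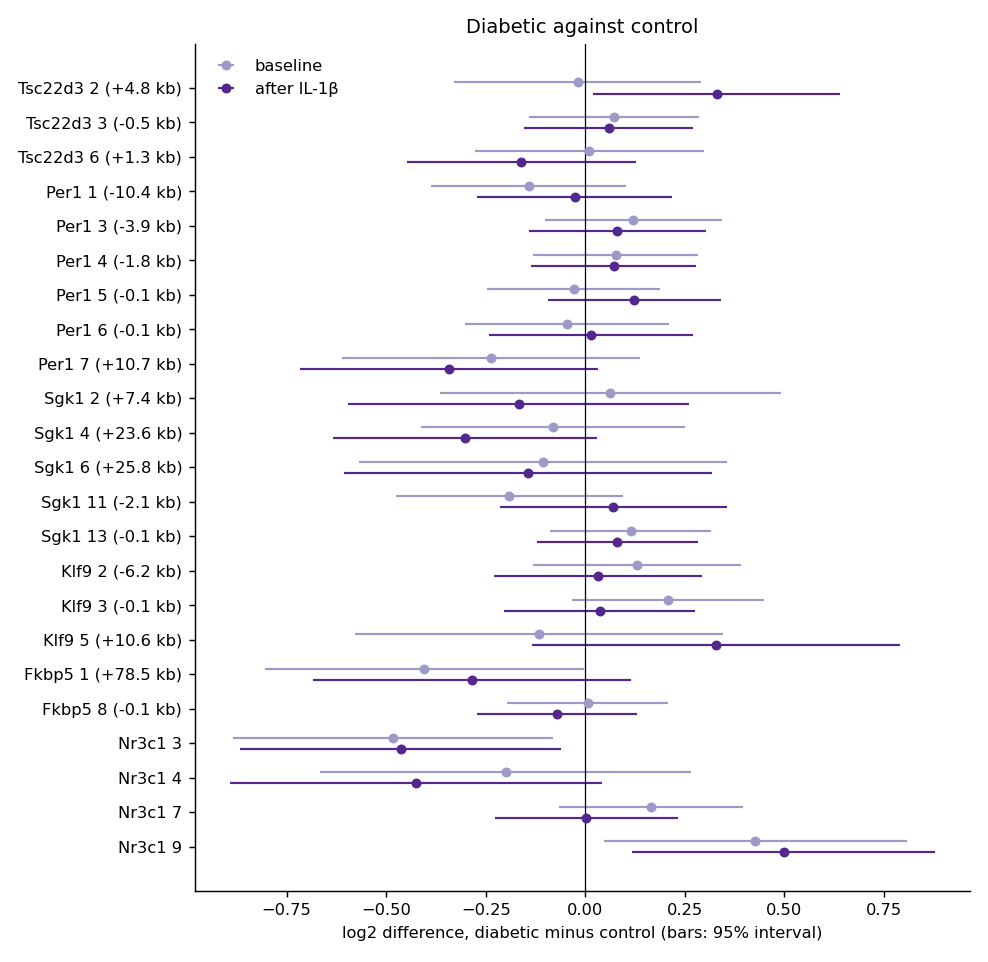
Log2 difference of diabetic minus control mice (horizontal axis) at the 23 member regions called in every library, at baseline (light) and after IL-1β (dark), with 95% intervals. Most intervals span 0; those that do not are at Nr3c1 regions 3 and 9 in both portions, Fkbp5 region 1 at baseline and Tsc22d3 region 2 after IL-1β.

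The remaining 34 member regions were called in 2 to 15 libraries and are described by their calls. More baseline than IL-1β libraries called 22 of them, more IL-1β libraries called 7, and 5 were equal, which is 64.7%, 20.6% and 14.7%. Over all 59017 regions of this kind the shares were 63.7%, 21.3% and 15.1%, so the members stood near the background. Per1 region 8, 684 bp from the neighbouring gene Hes7, was called in 8 of 8 baseline and 2 of 8 IL-1β libraries. Sgk1 region 8, deep in the body, was called in 7 of 8 baseline libraries and 1 of 8 after IL-1β. Near the upper end of Nr3c1, region 12 was called in 4 of 4 libraries of every group except the diabetic IL-1β group, with 1 of 4, and region 11 in 4, 3, 4 and 1 of 4 in control baseline, control IL-1β, diabetic baseline and diabetic IL-1β. The share of all 59017 regions with such a pattern by phenotype was not counted, and calls were not tested. In a fit of all regions called in at least 12 libraries, the reads at Nr3c1 region 12 differed by -0.73 (SE 0.20) after IL-1β, those at region 6 by -0.56 (SE 0.16), and those at Sgk1 regions 5 and 9 by 0.57 (SE 0.19) and 0.52 (SE 0.16). For Nr3c1 region 12 the phenotype difference after IL-1β was -0.36 (SE 0.34, adjusted p 0.956). That fit uses only libraries in which a region was called, so a library without the peak does not enter its value.

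**Figure D5:**
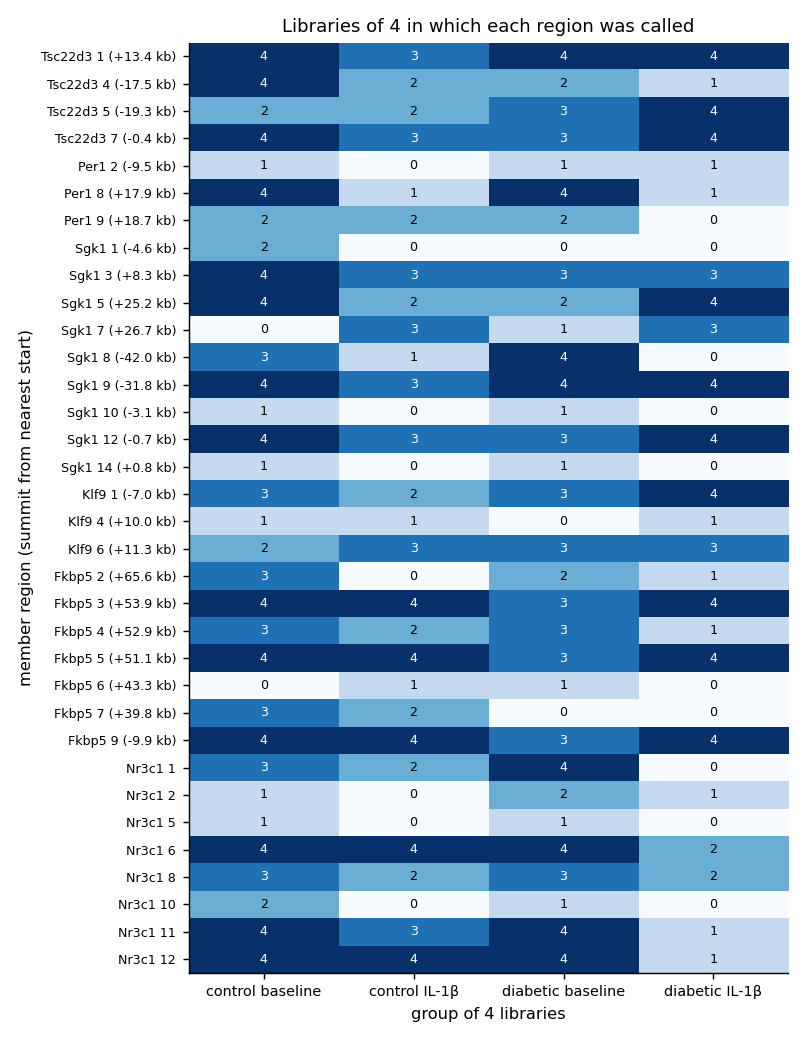
Number of libraries, of the 4 in each group (columns), in which each of the 34 member regions called in fewer than 16 libraries was called (rows, numbered as in the text, with the distance of the summit to the nearest start in kb where known). Darker cells are more libraries; Per1 region 8 and Sgk1 region 8 are dark in the baseline columns, and Sgk1 region 7 is darker in the IL-1β columns.

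Beyond the 6 genes, a list of 51 further genes of the pathway had 302 regions, of which 102 at 44 genes were called in every library. The list was chosen with earlier results of these data known. Its shares and adjusted p-values for the IL-1β change are therefore a description, and no enrichment can be read from them. After IL-1β 11 of these rose (10.8%) and 4 fell (3.92%) in limma, against 6.42% and 3.40% of all regions, with a median of 0.06. Among receptor partners and steroid enzymes 1 of 22 regions rose and 0 fell. Among coregulators 3 of 25 rose and 1 fell, and among induced targets 7 of 55 rose and 3 fell. With background scaling 0 rose and 8 fell (7.84%), against 0.813% and 9.39% of all regions, and with a cyclic loess scaling 8 rose (7.84%) and 4 fell (3.92%), against 6.40% and 4.13%.

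The targets that fell in limma were Dusp1, a phosphatase that switches off MAP kinases, at -0.84 (SE 0.10, adjusted p 4.8e-06), Anxa1, the anti-inflammatory annexin, at -0.63 (SE 0.09, adjusted p 5.1e-05), and Il1r2, the decoy receptor of IL-1, at -0.37 (SE 0.10, adjusted p 0.0216). All 8 mice were lower at each, and each remained a call with background scaling. The coregulator region that fell was counted for the corepressor gene Ncor1 but lies in the body of its neighbour Pigl, at -0.66 (SE 0.10, adjusted p 0.000149). Among the rises, a second region of Dusp1 was at 0.56 (SE 0.15, adjusted p 0.0189), so regions of Dusp1 went in both directions. The coactivators Ncoa2 and Ncoa3 were at 0.60 and 0.28, the transcription factor gene Zbtb16 at 0.49, and a region counted for Hsd11b1, the enzyme that regenerates active hormone, at 0.63, although it lies in the body of G0s2. Nfkbia, which encodes the inhibitor of NF-κB, had 2 regions at 0.29 and 0.28, and Birc3, Cdkn1a and Bcl2l11 were at 0.28, 0.27 and 0.27, the last in the body of Acoxl. None of the 11 rises was a call with background scaling, where the smallest, at Bcl2l11, became -0.00. No region of the list was called in any of the 3 phenotype comparisons.

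The regions whose scaled log2 reads followed those of the members most closely over the 16 libraries were named by nearest gene, with Pearson's r as a description; all points share the same libraries and the same division into portions. For Tsc22d3 region 2 these were at Suco (r = 0.95, 19217 bp from its body), Bcl2 (0.93) and Cobll1 (0.93). For Per1 region 6 they were at Rab11fip4 (0.92), Il1r2 (0.91) and Glipr2 (0.90). For Sgk1 region 6 they were at Gmeb1 (0.95), Actr3 (0.94) and Akna (0.93), and for Klf9 region 2 at Maml3 (0.96), Pcnx (0.94) and Bcl6 (0.92, 162261 bp from its body). Among the members themselves, r was 0.79 between the Tsc22d3 and Per1 regions, 0.75 between those of Klf9 and Sgk1, and -0.90 between those of Tsc22d3 and Klf9. These signs follow from the choice of genes that rose or fell between the portions. With the same genes, r was -0.21 to 0.25 for Fkbp5 and -0.50 to 0.65 for Nr3c1.

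Markers of cell types were read in the same libraries, where 6.42% of all regions were higher and 3.40% lower after IL-1β. All 10 stem and progenitor genes had regions and 8 had one called in every library, with none at Procr or Slamf1. Every gene of the other lists except Ncr1 had a region too. All genes of the erythroid, monocyte and macrophage, and granulocyte-monocyte progenitor lists had one called in every library, so this does not set the stem list apart. Of the 11 stem and progenitor regions called in every library, 0 were called higher or lower after IL-1β. Of the lineages that the labels name as removed, the T and NK cell list had 4 such regions, with no region at Ncr1 and none called in every library at Cd3e, Cd8a or Klrb1c, and 0 changed. The B cell list had 1 of 5 higher, and the erythroid list 0 of 13 changed. Of the mature neutrophil list 4 of 24 regions were higher and 1 lower, of the monocyte and macrophage list 3 of 12 were higher, and of the granulocyte-monocyte progenitor list 2 of 10 were higher and 1 lower. The mean log2 level of the neutrophil list was 5.59 to 5.78 in control baseline, 5.71 to 5.87 in control IL-1β, 4.90 to 5.77 in diabetic baseline and 5.41 to 5.73 in diabetic IL-1β libraries. That of the monocyte list was 5.03 to 5.24, 5.28 to 5.41, 4.85 to 5.15 and 5.19 to 5.38 in the same order. Group means of the stem and progenitor list were 4.93, 4.98, 5.09 and 5.03 in that order. Those of the T and NK cell list were higher, at 5.66, 5.65, 5.59 and 5.62. Group means of the B cell and erythroid lists were also above the stem list in each group. Erythroid levels were 4.62 to 5.53 in control baseline and 4.86 to 5.96 in diabetic baseline libraries. These lists hold different regions, and their levels were not tested against each other. Open chromatin at a gene does not show that its protein is present, and the part of these lists in the changes at the glucocorticoid genes was not tested.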

How the data were processed

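The 16 deposited lists are narrowPeak files, 1 per library, with positions on mm10. Per the submitters' processing notes edgeR, DiffBind 2.4.8, MACS2 2.1.1, Bowtie2 2.2.6, FastQC 0.11.3 and Trim Galore 1.8 were used. A Tn5 shift of reads or removal of duplicates, which would change reads per summit, was not given in the sources used here. The authors' peak caller wrote a score, a fold (a ratio over local background), a −log10 p and a −log10 q for each summit. The deposited score was not used, and the deposited −log10 q served only for a stricter filter of at least 5.

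For each summit the whole number of reads and the background were solved from the deposited fold and the deposited −log10 p, with a tolerance of 0.001; 99.999% to 100% of summits per library were solved. Peaks that overlapped or touched were merged (102496 regions). Log2 reads at the highest summit were scaled to equal medians and fitted with limma 3.58.1 (R 4.3.3) over the 24955 regions called in all 16 libraries, with 4 group means, a trended prior and Benjamini-Hochberg adjustment at 0.05. A region that a library lost entirely is not in that fit. Reads here are summit heights and not library counts, so no count model was used. Scripts were tested on simulated data; Python 3.11.15, pandas 2.3.3 and scipy 1.17.1 were used.

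Members, gene lists and the naming rule (at most 3 regions per member by size of the IL-1β difference in full, pathway genes past the threshold, and the 3 most correlated regions) were chosen with earlier results of these data known. The portions of a mouse share its number, as the design divides each sample; the correlation of their deviations was -0.04 to 0.42, and a fit with this replicate block was an alternative. Of the sequences, the 250 bases before a start were taken from RefSeq's table for GRCm38.p6, which matched 5 of 6 members. Values of some genes in the lists are not reported here.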

Additional observations from a re-analysis of the deposited data

Results flagged for a closer look

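Among 92 groups of 4 libraries at the 23 member regions, 4 held a library whose gap to the nearest other, divided by the range of the group, exceeded Dixon's 95% critical value; chance alone gives about 1 in 20 such groups. At Per1 region 1 the highest diabetic IL-1β library, mouse 1, had 56.2 scaled reads against 50.7 to 51.5, a ratio of 0.837. At Sgk1 region 6 the lowest control baseline library, mouse 4, had 11.8 against 18.8 to 20.3, a ratio of 0.863. At Fkbp5 region 1 the lowest diabetic baseline library, mouse 4, had 26.2 against 56.1 to 62.4, a ratio of 0.877, and the baseline difference between phenotypes there falls to -0.11 without it. At Nr3c1 region 4 the highest diabetic baseline library, mouse 1, had 22.1 against 14.4 to 14.95, a ratio of 0.915.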

How the results depend on the processing

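After IL-1β 1603 regions rose and 848 fell over all regions. These counts were 203 and 2343 with background scaling, 1044 and 514 without control mouse 2, and 2775 and 1473 without diabetic baseline replicate 4. Leaving out 1 library at a time gave 1243 to 2775 rises and 639 to 1473 falls, and 0 calls in each phenotype comparison. Regions called in at least 12 libraries gave 2551 rises among more regions tested. With the mouse as a replicate block 2400 rose and 1294 fell, and 0 were called between phenotypes at baseline, after IL-1β or for the difference. Summing the summits of a region gave 1 region lower for the difference of the change (adjusted p 0.0446). Counting the bodies plus 50 kb gave 107 member regions in place of 57. Under the stricter filter on q no value was available at Tsc22d3 region 2 and Sgk1 region 6, which had the largest changes of the members. Klf9 region 5 and Nr3c1 regions 4 and 9 had no value under it either. The change at Sgk1 region 4 in diabetic mice became -0.0067 (SE 0.27) with background scaling, and the report gives the smaller member values that changed sign with it. Of 3282 member values under the alternatives, 142 moved by more than the SD between replicates (IL-1β change) or their standard error (phenotype comparisons). Low summit reads at baseline, 10 to 23 before scaling at Nr3c1 region 9 and 12 to 30 at Sgk1 region 6, limit the precision there. Apart from what is stated, the cause was not tested. The alternatives without control mouse 2 or diabetic mouse 4 were chosen after seeing the data.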
